A study of Mus musculus with 24 samples.

Results

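Transcripts of 8 genes of the dual-specificity phosphatase family, Dusp1, Dusp2, Dusp4, Dusp5, Dusp6, Dusp10, Dusp11 and Dusp18, were followed in CD8+ T cells taken from the pancreas and the blood of mice. They are 8 of the 24 Dusp symbols and of the 24421 genes in the count files. They were selected on their levels across tissues and ages in these same libraries, so their differences between pancreas and blood are given as a description with no test. Dusp1, Dusp2 and Dusp5 were set apart as inducible members and the other 5 were their comparison.

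The study sorted cells carrying CD45, CD3 and CD8 and sequenced their RNA to follow these T cells while pancreatic disease progressed. KC pancreas had 12 libraries, from mice of 4 weeks (3 libraries), 9 weeks (2), 13 weeks (3), 20 weeks (2) and 30 weeks (2). KC blood had 9 libraries, from the same ages (2, 1, 3, 1 and 2). WT pancreas had 1 library of 9 weeks and 1 of 30 weeks, and WT blood had 1 library of 30 weeks. KC is the labels' name for the mice in which the disease was followed, given without alleles or a promoter, and WT mice are given as B6. Libraries are named by their titles, in which P8 stands in those of pancreas and B8 in those of blood, and nothing states whether a library pooled animals.

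MAP kinases (ERK, JNK and p38) carry signals from the T cell receptor, from cytokines and from stress, and are switched on when both a threonine and a tyrosine in their activation loop are phosphorylated. Dual-specificity MAP kinase phosphatases remove both phosphates, and several of their genes are themselves turned on by the pathway, which makes them a delayed brake on it. In T cells, Dusp1, Dusp2 and Dusp5 are known as genes transcribed soon after stimulation. The working name of the set, MAP kinase phosphatases, describes Dusp1, Dusp2, Dusp4, Dusp5, Dusp6 and Dusp10. It does not describe Dusp11, which acts mainly on the triphosphate end of RNA, and it is doubtful for Dusp18, a small atypical phosphatase without the domain that binds MAP kinases.

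The sequences before the start sites of the 3 inducible genes are shown because these genes are the ones set against the rest, and because signal-dependent transcription of such genes is read from short motifs near the start. Of the 8 members, 7 had a promoter in the RefSeq table of build GRCm38.p6, and Dusp4 did not. Each run is the 250 bases before the start, on the strand of the gene. In Dusp1 the capitals mark TGACG, the short form of the cyclic AMP response element, on either strand, at -191, -143 and -140 from the start site. In Dusp2 they mark the E-box CACGTG. In Dusp5 they mark a pair of adjoining CArG boxes, the motif bound by serum response factor, and 1 short form of the cyclic AMP response element.
Dusp1, chr17:26508473-26508722, minus strand: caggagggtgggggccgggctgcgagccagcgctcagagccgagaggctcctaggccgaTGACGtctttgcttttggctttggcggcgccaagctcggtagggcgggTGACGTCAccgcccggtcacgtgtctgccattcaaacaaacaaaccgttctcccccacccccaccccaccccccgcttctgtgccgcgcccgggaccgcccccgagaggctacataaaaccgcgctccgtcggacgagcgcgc
Dusp2, chr2:127335909-127336158, plus strand: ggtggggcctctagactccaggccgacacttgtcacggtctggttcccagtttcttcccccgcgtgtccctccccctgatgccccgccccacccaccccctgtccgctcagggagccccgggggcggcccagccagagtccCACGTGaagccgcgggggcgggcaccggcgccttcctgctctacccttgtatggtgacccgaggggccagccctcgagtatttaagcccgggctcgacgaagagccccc
Dusp5, chr19:53528895-53529144, plus strand: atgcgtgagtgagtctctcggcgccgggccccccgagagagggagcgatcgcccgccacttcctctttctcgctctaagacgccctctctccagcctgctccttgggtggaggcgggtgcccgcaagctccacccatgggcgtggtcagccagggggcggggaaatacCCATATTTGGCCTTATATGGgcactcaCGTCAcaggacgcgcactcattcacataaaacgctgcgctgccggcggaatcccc

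Both strands of the 250 bases were searched for 9 motifs, and matches of different motifs could overlap. The start sites used for Dusp11 and Dusp18 lie inside the gene spans given below. Part of the Dusp11 bases (chr6:85961668-85961917) and all of the Dusp18 bases (chr11:3894990-3895239) are therefore within those spans. The full cyclic AMP response element TGACGTCA was found in Dusp1, at -143, and in none of the other 6 promoters. It was present in 1.55% of the 32851 promoters in the table, and its short form TGACG, which the full element contains, in 17.8%. The CArG boxes of Dusp5 lay at -82 and -72, and 1.47% of promoters held one. The E-box CACGTG was found in Dusp1 at -126 and in Dusp2 at -109, against 6.02% of promoters. Dusp2 alone held the Egr motif GCGNGGGCG, at -98, overlapping a GC box (GGGCGG) at -94; the Egr motif was in 4.70% of promoters and the GC box in 32.7%. Dusp6 matched none of the 9 motifs, Dusp10 and Dusp18 held only GC boxes, and Dusp11 held 1 short form of the cyclic AMP response element at -33. AP-1 (TGANTCA, in 6.75% of promoters), the NFAT core (GGAAAA, 20.4%) and TATAAA (12.4%) were in none of the 7. A match is a description of these letters only.

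The libraries held 6352070 to 16716169 counts in genes, so 3 counts were worth 0.179 to 0.472 counts scaled to a library total of 1000000 (CPM), and CPM here is a gene's count divided by all counts in genes of its library. The sorted cells carried Cd3e at 3880 to 15700 CPM in KC pancreas and 3790 to 9450 CPM in KC blood, and Cd8a at 587 to 2060 CPM in KC pancreas and 742 to 3000 CPM in KC blood. Cd4 stayed at 15.2 to 39.4 CPM in KC pancreas and 13.3 to 37.1 CPM in KC blood. Markers of other cells were present and unequal: 19 of 20 acinar genes were detected, with a summed level of 0.103 to 10200 CPM (median 81.5) in KC pancreas and 0.0896 to 85.7 CPM (median 0.397) in KC blood, and Amy2a2 was at 0. All 10 macrophage genes were detected in KC pancreas (2.10 to 434 CPM, median 45.2) and 9 of 10, without C1qa, in KC blood (2.55 to 343 CPM, median 4.32). Platelet genes summed to 1.89 to 94.2 CPM (median 3.74) in KC pancreas, where Gp1bb was at 0, and 39.7 to 291 CPM (median 145) in KC blood. The part of these cells in the levels below was not tested. In bulk RNA, fewer cells that use a gene and less of its RNA per cell cannot be told apart.

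The libraries were also divided into 2 sets of 12 by traces of each other's library-specific genes, and the labels name no batch. These traces came from 95 genes of 14 source libraries. They were detected in 92.4% of checks in other libraries of the source's set, against 47.7% of checks in libraries outside it. The sets were made by clustering the libraries on these same traces, with the number of sets fixed at 2. The percentages therefore describe the sets and do not test them. All KC pancreas libraries of 4 and 13 weeks and both WT pancreas libraries were in set 1, and all KC pancreas libraries of 9, 20 and 30 weeks were in set 2. KC blood had Sample_42B8, Sample_43B8 and Sample_131B8 in set 1 and the other 6 in set 2. The WT blood library, Sample_W3B8, was in set 1. Age in KC pancreas and set therefore go together, and results that rest on it are given with the set beside them. In blood the summed acinar markers also went with the set. They were 80.9, 85.7 and 79.1 CPM in Sample_42B8, Sample_43B8 and Sample_131B8, and 86.0 CPM in Sample_W3B8. The other 6 KC blood libraries held 0.0896 to 1.40 CPM. The part of traces from other libraries in the levels of such markers was not tested.

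Per length of transcript, the same 4 genes led in both tissues in a different order. In RPKM, which is CPM per kilobase of the principal transcript, the median level in KC pancreas was 122 for Dusp1, 74.3 for Dusp10, 26.9 for Dusp11 and 16.2 for Dusp2. Dusp6 had a median of 2.30 RPKM there, Dusp4 0.467, Dusp5 0.329 and Dusp18 0. In KC blood the order was Dusp11 (37.6 RPKM), Dusp10 (24.9), Dusp1 (17.2), Dusp2 (8.02) and Dusp6 (3.73), with Dusp5 at 0.187, Dusp4 at 0.0327 and Dusp18 at 0. The ranges of every pair of neighbours in these orders overlapped. Dusp1 supplied a median of 56.8% of the summed RPKM of the 8 members in KC pancreas (6.03% to 65.9%) and 19.3% in KC blood (9.27% to 47.1%).

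Dusp1, an early-response phosphatase of the nucleus that acts on p38, JNK and ERK, was the member with the most pancreas libraries, 9 of 12, above every blood library. In KC pancreas it stood at 266, 683 and 525 CPM at 4 weeks (Sample_41P8, Sample_42P8 and Sample_43P8), at 79.3 and 211 CPM at 9 weeks (Sample_94P8 and Sample_95P8), at 221, 15.6 and 123 CPM at 13 weeks (Sample_131P8, Sample_132P8 and Sample_133P8), at 572 and 188 CPM at 20 weeks (Sample_204P8 and Sample_205P8) and at 1468 and 363 CPM at 30 weeks (Sample_302P8 and Sample_303P8). In KC blood it stood at 50.1 and 16.1 CPM at 4 weeks (Sample_42B8 and Sample_43B8), 63.8 CPM at 9 weeks (Sample_95B8), 33.9, 25.3 and 38.8 CPM at 13 weeks (Sample_131B8, Sample_132B8 and Sample_133B8), 18.7 CPM at 20 weeks (Sample_205B8) and 34.2 and 141 CPM at 30 weeks (Sample_302B8 and Sample_303B8). The pancreas libraries below the highest blood library were Sample_94P8, Sample_132P8 and Sample_133P8, and Sample_132P8 lay below every blood library. The fitted log2 fold change of KC pancreas over KC blood, with age as a factor, was 2.92 ± 0.57 (SE), and it was 2.37 within set 1 and 3.36 within set 2. In title numbers that occur in both tissues, Dusp1 was higher in pancreas in 8 of 9 by CPM, all but that of Sample_132P8, and in 9 of 9 after TMM scaling, which gave that pancreas library a factor of 0.464. Dusp1 lies on chromosome 17 (26505591 to 26508472, minus strand, GRCm38) and shares exon bases with Ergic1 on the other strand.

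Dusp10, which acts mainly on JNK and p38, was the other abundant member with a positive fitted fold change above 2 on the log2 scale. KC pancreas held 403, 170 and 238 CPM at 4 weeks, 1556 and 128 CPM at 9 weeks, 352, 156 and 25.2 CPM at 13 weeks, 284 and 94.1 CPM at 20 weeks and 648 and 177 CPM at 30 weeks, with libraries in the order given for Dusp1. KC blood held 69.5 and 5.25 CPM at 4 weeks, 134 CPM at 9 weeks, 8.14, 106 and 36.5 CPM at 13 weeks, 116 CPM at 20 weeks and 65.0 and 200.1 CPM at 30 weeks. The 1556 CPM of pancreas Sample_94P8 was more than any other value of a member, and 6 of 12 pancreas libraries lay above the highest blood library. The fitted log2 fold change was 2.29 ± 0.57 (SE) over all KC libraries, 2.68 within set 1, 2.16 within set 2 and 1.95 without Sample_94P8. In title numbers that occur in both tissues, Dusp10 was higher in pancreas in 5 of 9 by CPM and in 9 of 9 after TMM scaling, so the direction in single pairs depends on the scaling. Dusp10 lies on chromosome 1 (184034381 to 184075636, plus strand).

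Dusp2, a nuclear phosphatase best known from activated lymphocytes, was scattered in both tissues. KC pancreas held 18.7, 144 and 45.9 CPM at 4 weeks, 20.1 and 39.6 CPM at 9 weeks, 64.3, 1.29 and 1.30 CPM at 13 weeks, 6.67 and 8.34 CPM at 20 weeks and 157 and 32.1 CPM at 30 weeks. KC blood held 0.545 and 13.0 CPM at 4 weeks, 20.3 CPM at 9 weeks, 13.1, 34.9 and 2.90 CPM at 13 weeks, 15.8 CPM at 20 weeks and 12.2 and 10.6 CPM at 30 weeks. In pancreas 5 libraries lay above the highest blood library, while Sample_132P8 and Sample_133P8 were among the lowest of both tissues. Its fitted log2 fold change was 1.51 ± 0.95 (SE), 1.58 within set 1 and 1.46 within set 2. Dusp2 lies on chromosome 2 (127336159 to 127338377, plus strand).

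Dusp5, a nuclear phosphatase specific for ERK, was present in single libraries and near the counting limit in most. It reached 192 CPM (1413 counts) in pancreas Sample_204P8 of 20 weeks and 45.4 CPM (385 counts) in pancreas Sample_302P8 of 30 weeks. The highest of the remaining 10 pancreas libraries was Sample_95P8, at 4.76 CPM, and Sample_132P8 and Sample_133P8 had 0 counts. In blood it reached 20.5 CPM (199 counts) in Sample_43B8 of 4 weeks, while the other 8 libraries lay between 0.139 and 1.08 CPM. Medians were 0.814 CPM in KC pancreas and 0.463 CPM in KC blood. The fitted log2 fold change, 0.76 ± 1.60 (SE), had opposite signs in the 2 sets, -2.82 in set 1 and 4.95 in set 2, and was 2.46 without blood Sample_43B8 and -0.29 without pancreas Sample_131P8. Dusp5 lies on chromosome 19 (53529145 to 53541809, plus strand) and shares exon bases with AC137853.2 on the other strand.

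**Figure D1:**
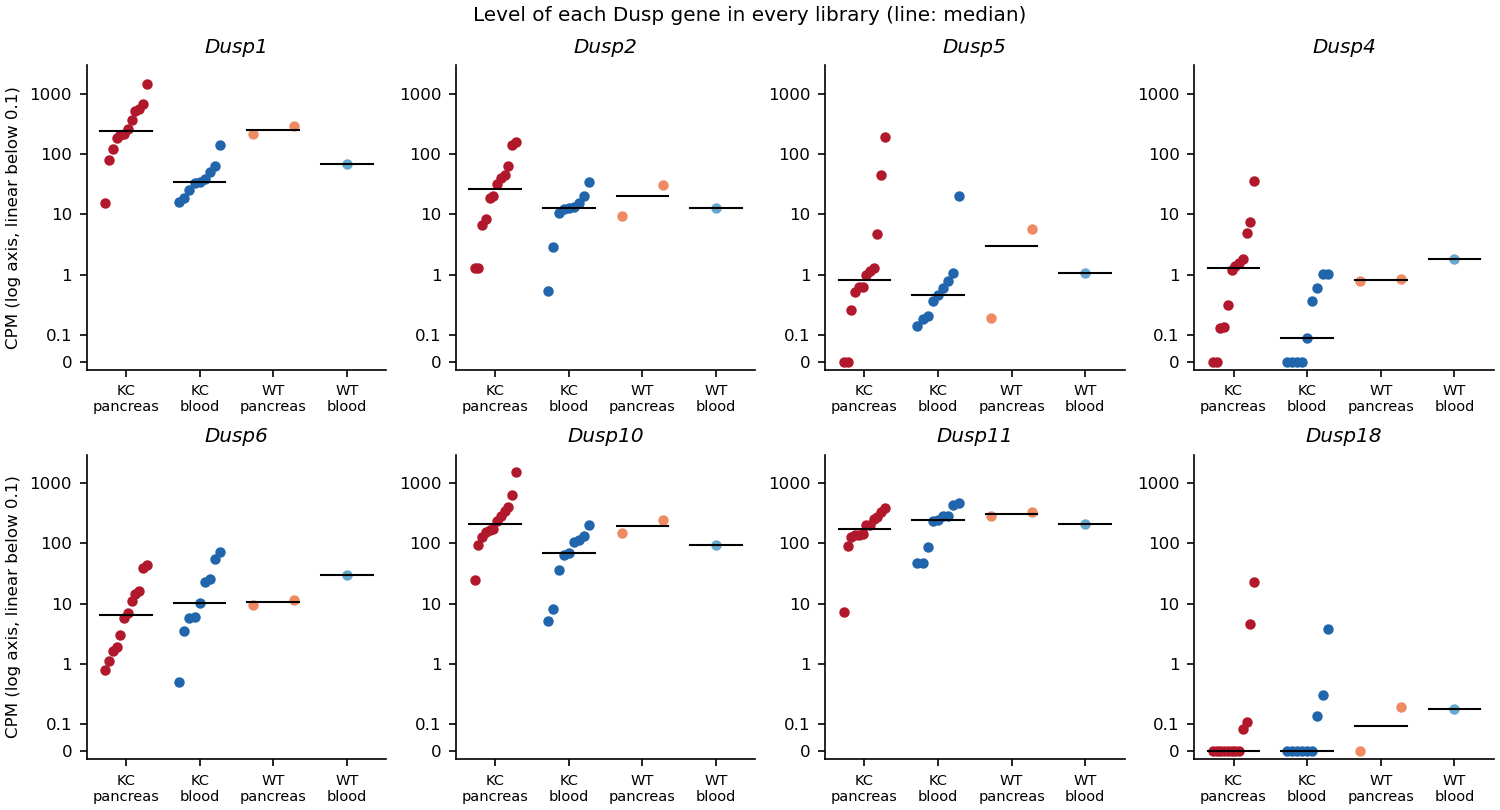
Level of each of the 8 Dusp genes in CPM (counts scaled to a library total of 1000000, log axis that is linear below 0.1) in every library; points are libraries of KC pancreas (12), KC blood (9), WT pancreas (2) and WT blood (1), sorted by value within a group, and lines are medians. Dusp1 lies above the highest KC blood library in 9 of 12 KC pancreas libraries, while Dusp5 and Dusp18 are high in 2 KC pancreas libraries and 1 KC blood library each.

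Among the members outside the inducible group, Dusp4, a nuclear phosphatase for ERK and JNK, was low and was found mostly in set 1. In KC pancreas it stood at 4.89, 7.46 and 1.37 CPM at 4 weeks, at 0.131 and 1.19 CPM at 9 weeks, at 35.9, 1.55 and 1.85 CPM at 13 weeks, at 0.136 and 0 CPM at 20 weeks and at 0 and 0.315 CPM at 30 weeks. KC blood ranged from 0 to 1.03 CPM, with 0 counts in 4 of 9 libraries. The 6 pancreas libraries of 4 and 13 weeks were its 6 highest values over all KC libraries, and they are the pancreas libraries of set 1. The fitted log2 fold change was 2.61 ± 1.35 (SE), 2.44 within set 1 and 1.83 with the set as a term. Within set 2 alone Dusp4 did not pass the filter on low counts, so no fold change was fitted there. Across the 12 KC pancreas libraries the summed acinar markers ranged from 104 to 10200 CPM in the 6 libraries of set 1 and from 0.103 to 59.0 CPM in the 6 of set 2. The part of acinar cells, or of traces from other libraries, in the level of Dusp4 was not tested. Dusp4 lies on chromosome 8 (34807610 to 34819894, plus strand).

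Dusp6, a cytoplasmic phosphatase specific for ERK, showed no consistent side. It ranged from 0.789 to 43.5 CPM (median 6.43) in KC pancreas, highest in Sample_204P8 and Sample_42P8, and from 0.509 to 70.9 CPM (median 10.4) in KC blood, highest in Sample_95B8 and Sample_132B8. The fitted log2 fold change was -0.49 ± 0.97 (SE), with a 95% interval (normal approximation) from -2.39 to 1.40, and it was 0.67 in set 1 and -0.42 in set 2. Dusp6 lies on chromosome 10 (99263231 to 99267489, plus strand).

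Dusp11, the RNA phosphatase, was abundant in all but 1 library and had no steady side. It ranged from 90.8 to 392 CPM in 11 of 12 KC pancreas libraries and was 7.24 CPM in Sample_132P8. KC blood ranged from 46.9 to 474 CPM, with the 3 lowest values in Sample_42B8, Sample_43B8 and Sample_131B8, which are its libraries of set 1. The fitted log2 fold change was 0.05 ± 0.52 (SE), with a 95% interval (normal approximation) from -0.97 to 1.07, and it was 0.91 within set 1, -0.0141 within set 2 and 0.42 with the set as a term. Dusp11 lies on chromosome 6 (85942268 to 85961732, minus strand) and shares exon bases with Gm19265 on the other strand.

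Dusp18 was absent from most libraries. It had 235 counts (23.1 CPM) in pancreas Sample_42P8 and 43 counts (4.53 CPM) in pancreas Sample_43P8, both of 4 weeks, and at most 1 count in the other 10. The summed acinar markers were 10240 CPM in Sample_42P8 and 5129 CPM in Sample_43P8, the highest values of all KC libraries, and summed fibroblast markers were highest in Sample_43P8, at 546 CPM. Of 8 fibroblast genes 7 were detected in each tissue, without Pdgfrb in KC pancreas (0 to 546 CPM, median 2.98) and without Lum in KC blood (0 to 1.65 CPM, median 0.265). The part of these cells in the level of Dusp18 was not tested. In blood it had 29 counts (3.84 CPM) in Sample_302B8 of 30 weeks, 5 counts in Sample_132B8, 1 count in Sample_303B8 and none in the other 6. Its fitted log2 fold change was -0.06 ± 0.85 (SE) and turned positive under several settings. Dusp18 lies on chromosome 11 (3894935 to 3901299, plus strand). The strand setting of the counting is not given in the sources used here, so reads of Dusp1, Dusp5 and Dusp11 and of the genes opposite them cannot be told apart.

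Of the 8 members, 6 had a positive fitted log2 fold change between tissues and 2 a negative one, with a median of 1.14, beside a median of -0.12 over the 11059 genes tested. Under the same edgeR quasi-likelihood test 10 of the 11059 genes (0.0904%) had a Benjamini-Hochberg adjusted p under 0.05. No such count is given for the members, since the contrast was in view when they were chosen. The same libraries were often extreme for several members: pancreas Sample_302P8 was the highest of its group for Dusp1 and Dusp2 and second for Dusp5 and Dusp10, and pancreas Sample_132P8 was the lowest for Dusp1, Dusp2 and Dusp11 and had no Dusp5.

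**Figure D2:**
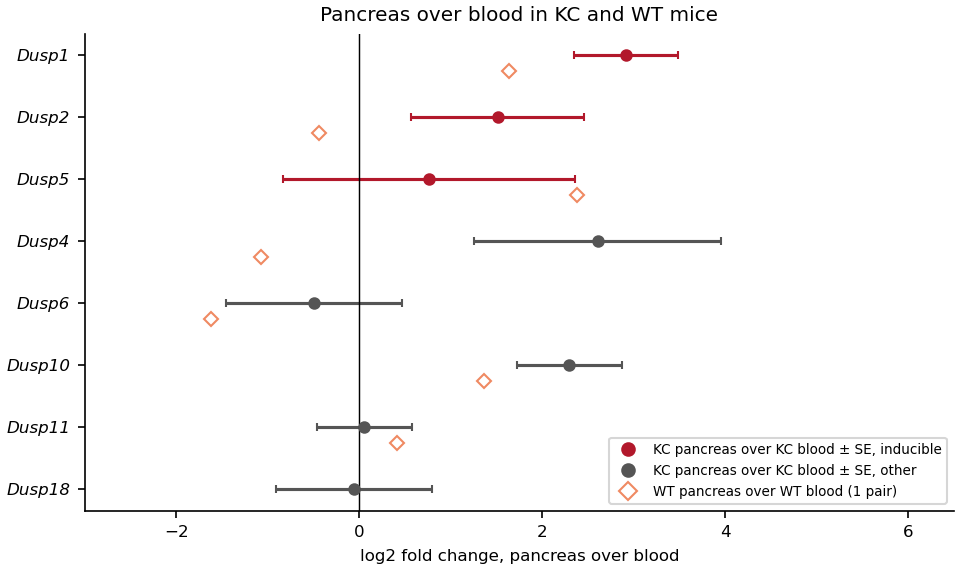
Log2 fold change of pancreas over blood for each member: filled circles are the fit over the 21 KC libraries with their standard error, open diamonds the ratio of the single pair of WT libraries of 30 weeks (prior count of 1, no error). Dusp1 and Dusp10 lie on the positive side in both genotypes, and Dusp18 has no diamond because it had 0 counts in WT pancreas and 3 in WT blood.

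The inducible members were set against the others as a ratio of summed RPKM in each library. In KC pancreas the ratio of Dusp1, Dusp2 and Dusp5 over the other 5 genes had a median of 1.64 and ranged from 0.0861 (Sample_94P8) to 3.12 (Sample_302P8). In KC blood the median was 0.392 and the range 0.226 (Sample_133B8) to 2.30 (Sample_131B8). The ratio was above 1 in 8 of 12 pancreas libraries and in 2 of 9 blood libraries, and the groups overlapped over most of their range. On a log2 scale the mean was 0.22 ± 1.71 in KC pancreas (SD, n = 12) and -0.94 ± 1.11 in KC blood (SD, n = 9), a difference of 1.16. Without Dusp1 the difference was 0.25, and without Dusp11 and Dusp18, which are not classic MAP kinase phosphatases, it was 0.56. The low ratio of pancreas Sample_94P8 came with its 1556 CPM of Dusp10. In WT pancreas the ratio was 1.5 at 9 weeks and 0.848 at 30 weeks, and in WT blood it was 0.543.

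**Figure D3:**
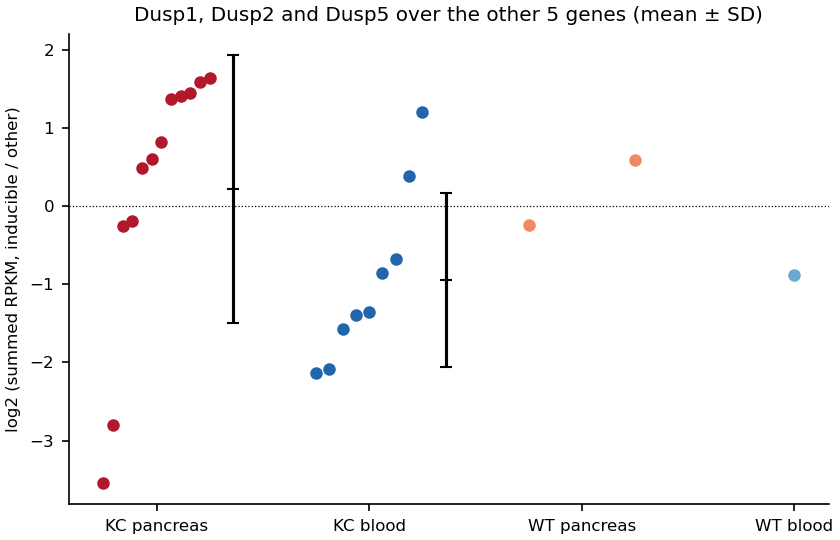
Log2 of the summed RPKM of Dusp1, Dusp2 and Dusp5 over that of the other 5 genes in every library (points), with the mean and SD of KC pancreas (n = 12) and KC blood (n = 9) beside them. KC pancreas has 8 of 12 libraries above 0 and KC blood 2 of 9, with overlapping ranges.

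Age was examined next, as a slope in log2 per 10 weeks. In the 12 KC pancreas libraries, 7 of the 8 members passed the filter on low counts (Dusp18 did not). Of these 7, 0 had an edgeR adjusted p under 0.05, where 28 of 9555 genes (0.293%) did. An unadjusted p under 0.05 was found for 1 of the 7, Dusp5, and for 855 of the 9555 genes. Dusp5 had the steepest slope, 3.35 ± 1.23 (SE, adjusted p = 0.336), and its high libraries were Sample_204P8 and Sample_302P8. With the carry-over set as a term the Dusp5 slope was 0.18. DESeq2 was run without that filter, so its count is over another set of genes, which included Dusp18. It called 745 genes, among them 2 members, Dusp5 (DESeq2 adjusted p = 0.00285) and Dusp18. Dusp4 had a slope of -2.20 ± 1.67 (SE, edgeR adjusted p = 0.831), and its higher libraries, those of 4 and 13 weeks, are those of set 1. The slopes of the remaining 5 lay between -0.23 and 0.48, with edgeR adjusted p from 0.76 to 0.991. Dusp1 did not follow age in 1 direction: its median CPM in KC pancreas was 525 at 4 weeks, 145 at 9, 123 at 13, 380 at 20 and 916 at 30 weeks, with 2 or 3 libraries each.

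In the 9 KC blood libraries, 5 of the 8 members passed the filter (Dusp4, Dusp5 and Dusp18 did not), and 0 of these 5 was called by edgeR or had an unadjusted p under 0.05, where 0 of 9933 genes (0%) was called and 870 had an unadjusted p under 0.05; DESeq2 called 411 genes and no member. The steepest slope of a member was that of Dusp6, -1.27 ± 0.81 (SE, edgeR adjusted p = 0.679). The difference of the slopes, KC pancreas minus KC blood, could be fitted for all 8 members over the 21 KC libraries. Of these, 1 was called, Dusp18, at -8.20 ± 1.61 (SE, edgeR adjusted p = 0.0407), where 6 of 11059 genes (0.0543%) were. The 3 libraries with more than 5 counts were Sample_42P8 and Sample_43P8 of 4 weeks and Sample_302B8 of 30 weeks. Sample_42P8 and Sample_43P8 also had the highest summed acinar markers of the KC libraries, and the part of acinar cells in the Dusp18 result was not tested. The call was kept in 8 of the 19 fits without 1 library in which Dusp18 was still tested (it was not without Sample_42P8 or Sample_43P8), those without Sample_41P8, Sample_94P8, Sample_132P8, Sample_133P8, Sample_302P8, Sample_131B8, Sample_205B8 or Sample_303B8. With the carry-over set as a term its adjusted p was 0.105. Dusp5 differed in the other direction, by 5.25 ± 1.44 (SE, edgeR adjusted p = 0.174), with its high blood library at 4 weeks and its high pancreas libraries at 20 and 30 weeks; DESeq2, which called 339 genes here, gave an adjusted p of 0.000869. These age values were also in view when the members were chosen, so no p of this paragraph or the one before is independent of that choice.

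**Figure D4:**
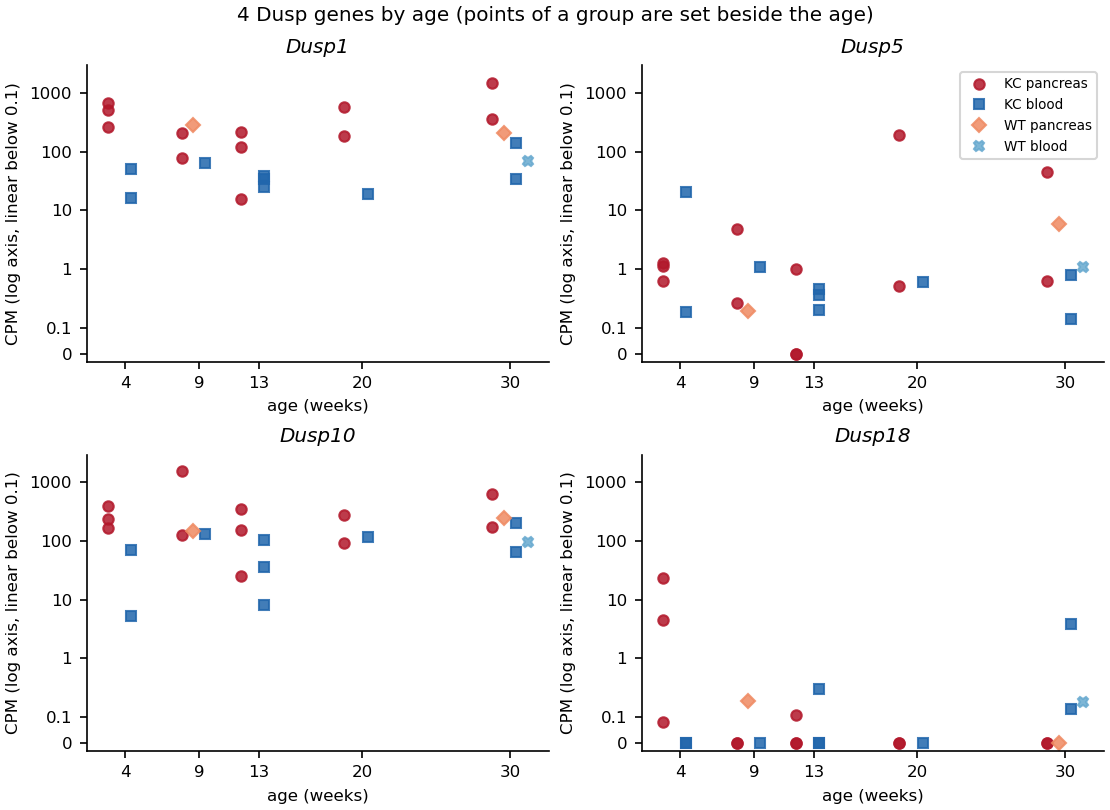
Levels of Dusp1, Dusp5, Dusp10 and Dusp18 in CPM (log axis that is linear below 0.1) against age in weeks, 1 point for each library of KC pancreas, KC blood, WT pancreas and WT blood, with groups set slightly apart at each age. Dusp5 is high in 1 of 2 KC pancreas libraries at 20 and at 30 weeks, and Dusp18 in 2 of 3 KC pancreas libraries at 4 weeks.

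KC was compared with WT in the pancreas at 9 and 30 weeks. Dusp1 stood at 79.3 and 211 CPM in KC pancreas and 289 CPM in WT pancreas at 9 weeks, and at 1468 and 363 CPM in KC pancreas and 214 CPM in WT pancreas at 30 weeks. It was thus below WT in both KC libraries at 9 weeks and above it in both at 30 weeks. Dusp2 stood at 20.1 and 39.6 CPM in KC pancreas and 31.0 CPM in WT pancreas at 9 weeks, and at 157 and 32.1 CPM in KC pancreas and 9.34 CPM in WT pancreas at 30 weeks. Dusp10 stood at 1556 and 128 CPM in KC pancreas and 149 CPM in WT pancreas at 9 weeks, and at 648 and 177 CPM in KC pancreas and 247 CPM in WT pancreas at 30 weeks. Dusp5 stood at 0.263 and 4.76 CPM in KC pancreas and 0.190 CPM in WT pancreas at 9 weeks, and at 45.4 and 0.630 CPM in KC pancreas and 5.82 CPM in WT pancreas at 30 weeks. Over both ages, 0 of 8 members was called by edgeR, with adjusted p from 0.865 (Dusp10), where 28 of 12374 genes (0.226%) were called. An unadjusted p under 0.05 was found for 0 of the 8 and for 717 of the 12374 genes. DESeq2 called 0 of the 8, where it called 180 of all genes. The WT libraries and the KC libraries of these ages lie in different carry-over sets, so genotype and set cannot be told apart here, and there was 1 WT library for each age. The members were selected on levels in these same libraries. No p of a member between KC and WT, here or in blood below, is therefore independent of that choice.

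The other members were measured in the same libraries. Dusp11 had 328 and 279 CPM in KC pancreas and 334 CPM in WT pancreas at 9 weeks, and 255 and 90.8 CPM in KC pancreas and 283 CPM in WT pancreas at 30 weeks, below WT in all 4. Dusp6 had 0.789 and 14.7 CPM in KC pancreas and 11.7 CPM in WT pancreas at 9 weeks, and 5.89 and 2.99 CPM in KC pancreas and 9.65 CPM in WT pancreas at 30 weeks, below WT in 3 of 4. Dusp4 lay between 0 and 1.19 CPM in the 4 KC libraries and was 0.855 and 0.798 CPM in WT pancreas. Dusp18 had 0 counts in the 4 KC libraries and 2 and 0 counts in WT pancreas.

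In blood at 30 weeks the 2 KC libraries were set against 1 WT library. The WT library was in carry-over set 1 and both KC libraries were in set 2, so genotype and set go together at this age. Dusp1 stood at 34.2 and 141 CPM in KC blood and 68.8 CPM in WT blood, and Dusp10 at 65.0 and 200.1 CPM in KC blood and 96.1 CPM in WT blood, so the KC libraries lay on both sides of WT. Dusp6 stood at 5.96 and 3.48 CPM in KC blood and 30.0 CPM in WT blood, and Dusp4 had 0 counts in both KC libraries and 30 counts (1.79 CPM) in WT blood. Of the 8 members 0 was called by edgeR, each with an adjusted p of 1, and 0 had an unadjusted p under 0.05. Of 12496 genes 0 (0%) was called, while 354 had an unadjusted p under 0.05. DESeq2 called 10 genes and no member.

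The tissues were also compared in WT mice of 30 weeks, with 1 library each and no test. Dusp1 had 214 CPM in WT pancreas and 68.8 CPM in WT blood, a log2 ratio of 1.63. Dusp10 had 247 CPM in WT pancreas and 96.1 CPM in WT blood (1.36), and Dusp5 had 5.82 CPM in WT pancreas and 1.08 CPM in WT blood (2.38). These 3 members were at least 2-fold higher in WT pancreas, as were 15.0% of the 10947 genes with at least 10 counts in either library. Dusp6 had 9.65 CPM in WT pancreas and 30.0 CPM in WT blood (-1.63), and Dusp4 had 0.798 CPM in WT pancreas and 1.79 CPM in WT blood (-1.08), both at least 2-fold lower in pancreas, as were 40.3% of these genes; with a prior count of 5 Dusp4 (10 counts in WT pancreas and 30 in WT blood) was at -0.81, under 2-fold. Dusp2 (-0.44) and Dusp11 (0.41) differed by less than 2-fold, and Dusp18 had 0 counts in WT pancreas and 3 in WT blood. The median log2 ratio of all 10947 genes was -0.53.

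Of the other 16 Dusp genes of the files, Dusp13, Dusp15, Dusp26 and Dusp27 had no count in any library, 6 more stayed under 10 CPM in every library, and 6 (Dusp7, Dusp12, Dusp16, Dusp19, Dusp22 and Dusp28) reached it in some library. Dusp7, another cytoplasmic ERK phosphatase, had a median of 15.6 CPM in KC pancreas and 28.3 CPM in KC blood, and Dusp22, an atypical member known as a negative regulator of T cell receptor signalling, 34.1 CPM in KC pancreas and 66.9 CPM in KC blood. Of these 16 genes 8 were tested between KC pancreas and KC blood, with 3 positive and 5 negative log2 fold changes, and 0 was called by edgeR. Dusp23 had 0 counts in all 12 KC pancreas libraries and up to 6.94 CPM in KC blood (edgeR adjusted p = 0.0852, and 0.0468 with no filter on low counts), and Dusp19 had a median of 2.79 CPM in KC pancreas and 14.9 CPM in KC blood (edgeR adjusted p = 0.539).

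Genes around the phosphatases were counted in 7 lists of the MAP kinase pathway, which were drawn up with earlier results of these data known. Of the 9 MAP kinases tested, 6 had positive and 3 negative log2 fold changes of KC pancreas over KC blood, and of the 7 MAP kinase kinases 4 were positive and 3 negative. Of the 18 MAP kinase kinase kinases 8 were positive and 10 negative, and of the 24 genes from the T cell receptor to Ras 13 were positive and 11 negative. Of the 3 Sprouty and Spred inhibitors tested 1 was positive, and of the 9 kinases activated by MAP kinases 3 were. In these 6 lists 0 of 70 genes were called by edgeR. An unadjusted p under 0.05 was found for 8 of the 70, and for 1089 of all 11059 genes tested. DESeq2 called 2 of them, Sos2 and Spred1, where it called 489 of all genes. The median log2 fold change of the 11059 genes was -0.12. The genes with the smallest p were Map3k8, a kinase that feeds ERK (median 0.254 CPM in KC pancreas and 13.0 CPM in KC blood, log2 fold change -3.94 ± 1.33 (SE), edgeR adjusted p = 0.251), and Sos2, a Ras activator (183 CPM in KC pancreas and 80.6 CPM in KC blood, 1.68 ± 0.59 (SE), edgeR adjusted p = 0.267). The other 10 named by the same rule were Mapk14, Mapk7, Map2k1, Map2k7, Map3k5, Sos1, Spred1, Spred2, Rps6ka3 and Mapkapk5, with edgeR adjusted p from 0.317 to 0.804. Among them Sos1, of the same list as Sos2, went the other way, at -1.41 ± 0.54 (SE, edgeR adjusted p = 0.331).

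The last list held transcription factors that respond to MAP kinases. Of 20 tested, 15 were positive and 5 negative, with a median log2 fold change of 1.82 beside -0.12 for all genes tested. Of the 20, 3 were called by edgeR, Egr1, Fos and Fosb, all higher in KC pancreas than in KC blood. Of all 11059 genes tested 10 were called (0.0904%). DESeq2 called 8 genes of this list, where it called 489 of all genes. The list was drawn up with this contrast in view, so the p of these genes are not independent of that choice. Egr1 had a median of 215 CPM in KC pancreas (25.3 to 595) and 12.3 CPM in KC blood (3.91 to 67.7), with a log2 fold change of 3.92 ± 0.69 (SE, edgeR adjusted p = 0.00223). Fos had a median of 32.3 CPM in KC pancreas (0.517 to 84.0) and 0.593 CPM in KC blood (0.132 to 2.13), with 5.50 ± 1.07 (SE, edgeR adjusted p = 0.00771). Fosb had a median of 46.7 CPM in KC pancreas (2.37 to 310) and 2.14 CPM in KC blood (0.731 to 2.64), with 5.26 ± 1.0 (SE, edgeR adjusted p = 0.00755). Their adjusted p lay above 0.05 with the 4-week libraries left out (0.0619 for Egr1 and Fosb, 0.111 for Fos) and within either carry-over set, and that of Fosb was 0.102 without pancreas Sample_302P8, while each log2 fold change stayed above 3. In the age comparisons and between KC and WT pancreas no gene of the 7 lists was called by edgeR, and at most 1 by DESeq2. Of the 82 to 97 listed genes tested, 1 to 6 had an unadjusted p under 0.05. Of the 9555 to 12374 genes tested in all, 717 to 921 had one.

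Genes whose ranks over the 21 KC libraries were most like those of the inducible members were listed from 8544 genes with a mean of at least 5 CPM. For Dusp1 they were Tnfaip3, an inhibitor of NF-kB signalling (Spearman rho 0.874), Rgs2, a regulator of G protein signalling (0.826), Fos (0.818), Nr4a3, an early-response nuclear receptor (0.818), and Fosb (0.814). All 5 had a higher median in KC pancreas than in KC blood, as Dusp1 had, and the libraries share tissue, carry-over set and depth, so these values describe likeness only. For Dusp2 the 5 were Xdh (0.770), Tmem2 (0.760), Zfp384 (0.760), Rnf123 (0.755) and Irf4, a transcription factor of activated lymphocytes (0.753). For Dusp5 they were Nanos1 (0.783), Slc16a1 (0.764), Fyn (0.755), Naaa (0.743) and Trip12 (0.742). The 3 lists had no gene in common.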

How the data were processed

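RNA of sorted CD8+ T cells was prepared with a Qiagen micro kit, per the labels' protocols. The deposited files hold the authors' unnormalised read count of each gene symbol, plus 5 tallies of unassigned reads, which were left out. TopHat, SAMtools, HTSeq and DESeq are named, with build mm10, per the submitters' processing notes; versions, settings, strand use and annotation are not given in the sources used here. Between 11.7% and 32.5% of tallied reads were in genes.

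Groups and ages came from the labels; nothing says which libraries came from separate animals, so p-values measure the spread between libraries. No 2 libraries of a group agreed within sampling noise. Members and lists were chosen with earlier results of these data known. Genes were filtered by filterByExpr (minimum count 10) and tested two-sided by the robust quasi-likelihood F-test of edgeR 4.0.16 (R 4.3.3) after TMM scaling, with Benjamini-Hochberg adjustment over all genes tested; the scripts were checked on simulated counts. Tissue was fitted in 21 KC libraries with a factor for age, age as a number within each tissue, their difference as an interaction, and genotype in 14 pancreas and 10 blood libraries with a term for each group and age. An SE is the log2 value over the root of F. The biological coefficient of variation was 1.12 to 1.32. RPKM used the principal transcript in GENCODE M21. Log2 ratios of single libraries used a prior count of 1. Alternatives were RLE scaling, no filter, no robust estimation, DESeq2 1.42.0, leaving out each library, the carry-over set as a term, the replicate block, no age term, each set alone, no 4-week libraries, log2 of age and single ages.

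Named genes were the members, up to 2 per list with the smallest p between tissues, any listed gene that passed, and the 5 genes most like each inducible member. Carry-over traces were genes that reached 100 CPM in a single library and stayed at or under 5% of their level there in all others. Source libraries were those with at least 3 such genes.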

Additional observations from a re-analysis of the deposited data

Results flagged for a closer look

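Dusp1 in KC blood had 1 library apart from the rest: Sample_303B8 of 30 weeks, at 141 CPM, where the next was 63.8 CPM. Dusp5 in KC blood was 20.5 CPM in Sample_43B8 of 4 weeks, where the other 8 lay at or under 1.08 CPM. Dusp18 in KC blood was 3.84 CPM in Sample_302B8 of 30 weeks, where the next was 0.305 CPM. Each of these 3 had a gap to its neighbour, as a share of the group's range, above Dixon's 95% limit for 9 libraries, at 0.617, 0.954 and 0.921. In all, 9 sets of KC blood values were checked, those of the members in CPM and not in log2. Dixon's limit assumes normally spread values, which CPM need not be, so the number flagged by chance is not known.

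The age slopes of Dusp18 differed between KC pancreas and KC blood by -8.20 log2 per 10 weeks in the interaction test of edgeR (adjusted p = 0.0407, and 0.0163 to 1 under the 6 other settings). The libraries with more than 5 counts were Sample_42P8, Sample_43P8 and Sample_302B8. Without Sample_42P8 or without Sample_43P8, Dusp18 did not pass the filter on low counts. The age values were in view when Dusp18 was chosen, so its p is not independent of that choice.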

How the results depend on the processing

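The tissue fold changes of Dusp1, Dusp2 and Dusp10 kept their sign under every setting and in every fit without 1 library. That of Dusp4 did so wherever it was fitted. It did not pass the filter on low counts in set 2 alone or with no age term, so it has no value there. Signs turned for Dusp5 in set 1 alone (-2.82), for Dusp6 with the set as a term (0.0327) and in set 1 alone (0.67), for Dusp11 with the replicate block (-0.0371), in set 2 alone (-0.0141) and without the 4-week libraries (-0.17), and for Dusp18 with RLE scaling (0.29), DESeq2 (0.54), the set as a term (0.97), the replicate block (1.05) and in set 1 alone (8.44). Leaving out 1 library moved Dusp5 between -0.29 and 2.46, Dusp11 between -0.12 and 0.33 and Dusp18 between -1.01 and 1.27. The cause of these changes was not tested.

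Counts of called genes also moved. Between tissues, 10 genes became 34 with no filter, 489 with DESeq2, 65 with no age term, 6 and 2 within set 1 and set 2, 4 without the 4-week libraries and 6 (without Sample_302P8) to 21 (without Sample_131B8) when 1 library was left out. For age in KC pancreas, 28 became 686 with no filter, 745 with DESeq2, 0 with the set as a term, 18 with log2 of age and 10 to 31 without 1 library. For age in KC blood, 0 became 102 with no filter, 411 with DESeq2, 16 with log2 of age and 0 to 12 without 1 library. For the difference of slopes, 6 became 0 with RLE scaling, 1 without robust estimation, 339 with DESeq2, 1 with the set as a term, 0 with the replicate block and 0 to 13 without 1 library. For KC against WT pancreas, 28 became 180 with DESeq2, 8 at 30 weeks alone, 15 at 9 weeks alone and 4 (without Sample_W1P8) to 29 without 1 library, and the set could not be fitted as a term. For KC against WT blood, 0 became 10 with DESeq2, 5 with the set as a term and 0 to 2 without 1 library.

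Same-numbered libraries of the tissues did not deviate together (7 pairs, correlation -0.0521 to 0.0155, none best with its own number), so the replicate block is only an alternative; under it the difference of slopes of Dusp18 was -6.00 with an adjusted p of 1, and between tissues Dusp1 was 2.87. Below 3 counts, or 0.179 to 0.472 CPM, Dusp4, Dusp5 and Dusp18 could not be told from absent.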
